A study of Saccharomyces cerevisiae with 6 samples.

Results

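Rrm3 binding in sac3Δ cells of the yeast Saccharomyces cerevisiae was compared with the sites of the TREX-2 subunits Thp1 and Sac3. The members were all 7102 clusters in the list of Rrm3-FLAG in sac3Δ cells, of 11869 clusters in the 3 lists analyzed. The 2485 Thp1 and 2282 Sac3 clusters were merged into 2785 intervals, called Thp1/Sac3 intervals, each holding a cluster of at least 1 of both proteins. All lists come from ChIP-chip, in which DNA bound to a tagged protein is recovered with an antibody and read on a tiling microarray. Each list holds the chromosome, start and end of its clusters, with no signal, P-value or genome build.

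Thp1 and Sac3 were mapped in strains carrying THP1::FLAG::KanMX or SAC3::FLAG::KanMX, with both genes otherwise present. Rrm3 was mapped in strain S3RBb-5B, which carries Rrm3::FLAG, sac3::KanMX, bar1Δ and ura3::URA3/GPD-Tk(7x). The THP1-FLAG and SAC3-FLAG strains have ura3-1 in place of this last allele. All of them are MATa and share trp1-1, can1-100, ade2-1, his3-11,15 and the same leu2 allele. Cells grew asynchronously in rich YPD medium at 30°C, to mid-log phase. The strains thus differ in more than SAC3, and each list used here comes from 1 strain. Thp1 and Sac3 had 1 array experiment each, and the single Rrm3 list was taken to combine 2 repetitions, as the methods give for this protein. It was assigned to sac3Δ by its title. No spread between replicates can be given, so the intervals below cover counting error over clusters only, and neighboring clusters are not independent. The Rrm3 lists of other strains were not analysed here, so nothing below is a change caused by the loss of Sac3.

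Rrm3 is a DNA helicase of the Pif1 family that travels with the replication fork and helps it pass tightly bound proteins. It is known for its action at the rDNA, tRNA genes, centromeres and telomeres, and its accumulation on DNA is read as a mark of obstacles to replication. TREX-2 couples transcription with mRNA export and anchors active genes to the nuclear pore. Sac3 is its scaffold, and Thp1 pairs with Sac3 in the part that binds mRNA. The comparison asks how Rrm3, in cells that lack the scaffold, is placed relative to the sites where TREX-2 is found in cells that have it.

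Rrm3 clusters away from Thp1/Sac3 intervals were many and mostly short. Those that enclosed an interval were fewer and mostly longer, with lengths that overlapped. Of the 7102 Rrm3 clusters, 2278 shared at least 1 bp with a Thp1/Sac3 interval (32.1%, 95% Wilson interval 31.0 to 33.2%). These clusters were less than a majority by number, yet they held 58.9% of all Rrm3 bases. The intervals took up 12.9% of the bases of the whole span. A cluster of many bases touches an interval more often than a single base does. The share touching among clusters placed at random was not computed, so the 32.1% is a description only. In the other direction, 2745 of the 2785 Thp1/Sac3 intervals (98.6%) were touched by Rrm3, and 2543 of them (91.3%) lay wholly inside 1 Rrm3 cluster. Only 15 intervals were touched by more than 1 Rrm3 cluster. Rrm3 covered 97.8% of the bases inside the intervals and 35.2% of those outside, while it covered 43.3% of the whole span of 12069093 bp. Its coverage was higher inside than outside on 16 of 16 chromosomes, from 93.0% inside on chromosome I to 99.6% on chromosome X, and from 31.1% outside on chromosome IV to 40.2% on chromosome I.

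The few Thp1/Sac3 intervals without Rrm3 were mostly bound by Thp1 alone. Of the 40 that Rrm3 did not touch, 33 held Thp1 and no Sac3, 4 held Sac3 alone and 3 held both. Rrm3 touched 93.8% of the 533 intervals of Thp1 alone (95% Wilson interval 91.4 to 95.6%), 98.9% of the 357 of Sac3 alone (97.2 to 99.6%) and 99.8% of the 1895 with both (99.5 to 99.9%). The lower share at intervals of Thp1 alone was alike on chromosome IV, where Thp1 has an excess of clusters over Sac3, and elsewhere. It was 93.8% of 208 intervals there (89.6 to 96.3%) and 93.8% of 325 on the other chromosomes (90.7 to 96.0%). The 5 longest intervals with no Rrm3 base measured 975 bp at chrIII:150193-151167, 653 bp at chrXIV:769877-770529, 627 bp at chrVII:3220-3846, 521 bp at chrVII:4904-5424 and 446 bp at chrXIII:661638-662083 (positions counted from 1, as the lists give them, genome build not named). The interval of 521 bp was bound by both proteins and the others by Thp1 alone.

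Rrm3 clusters were longer the more Thp1/Sac3 intervals they enclosed. The 4824 clusters that touched no interval had a median length of 336 bp (exact binomial 95% interval of the median 329 to 346 bp). The 1751 with 1 interval inside had a median of 834 bp (804 to 867 bp), so their median lay well above the upper quartile of the former, 557 bp. With 2 intervals inside, 298 clusters had a median of 1910.5 bp (1760 to 2049 bp). With 3 or more, 60 clusters had a median of 3226 bp (2792 to 3736 bp). The remaining 169 clusters touched an interval without enclosing one, and had a median of 595 bp (495 to 694 bp). The intervals of the 5 medians did not overlap, and the order by number inside was the same with clusters of at least 300 bp in each list, which raised the medians to 562, 1319, 3001 and 7634 bp for 0, 1, 2 and 3 or more intervals. A long cluster has more room to enclose an interval wherever it lies, and no cluster can be shorter than the intervals and gaps it encloses. The choice of at least 300 bp raises that minimum. The relation therefore describes the lists and has no test.

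**Figure D1:**
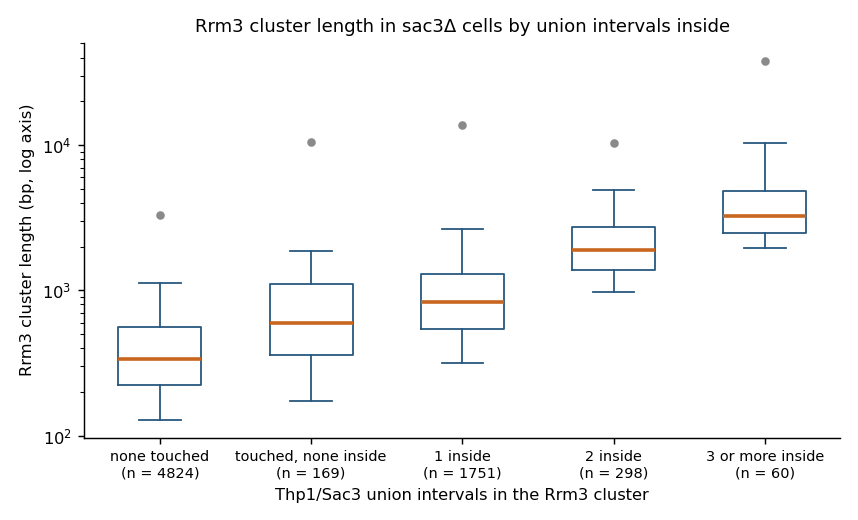
Length of Rrm3 clusters in sac3Δ cells (bp, log axis) by the number of Thp1/Sac3 intervals lying wholly inside. Boxes give the quartiles with the median in orange, whiskers the 5 to 95% range and grey points the longest cluster. The medians rise from 336 bp with no interval touched to 3226 bp with 3 or more inside.

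Part of this difference was the length of the enclosed intervals themselves, and part was Rrm3 outside of them. After the bases in Thp1/Sac3 intervals were taken away, clusters with 1 interval inside had a median of 470 bp (443 to 496 bp), against 336 bp for clusters that touched none. Longer clusters are more likely to enclose an interval wherever it lies, so this excess can be partly built in, which was not tested. The remainder was 1028 bp (964 to 1094 bp) with 2 intervals and 1595.5 bp (1439 to 1773 bp) with 3 or more. Clusters with 2 or more inside must also hold the gaps between these intervals, so this rise with the number is partly built in. The Rrm3 bases outside an interval changed little with the size of the interval. For clusters that touched a single interval, wholly inside, their median was 460 bp at intervals of 100 to 200 bp (579 clusters), 512 bp at 500 to 1000 bp (239 clusters) and 413 bp at 2000 bp or more (53 clusters). The median length of those Rrm3 clusters rose over the same steps from 614 to 1227 and 5706 bp.

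Seen from the length of the Rrm3 clusters, nearly all clusters of 2000 bp or more touched a Thp1/Sac3 interval, though longer ones have more room to. Of the 993 clusters of 100 to 200 bp, 20 touched an interval (2.01%, Wilson interval 1.31 to 3.09%). The share was 40.2% of 1859 clusters of 500 to 1000 bp (38.0 to 42.5%). It was 69.7% of 1027 clusters of 1000 to 2000 bp (66.84 to 72.45%) and 91.1% of 213 clusters of 2000 to 3000 bp (86.5 to 94.2%). All 70 clusters of 5000 bp or more touched an interval. Chromosome by chromosome, the median length was higher for clusters with 1 interval inside than for those touching none in 16 of 16, from 687 bp on chromosome IV to 1058 bp on chromosome II for the former and from 299 bp on chromosome III to 376.5 bp on chromosome XV for the latter.

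The longest Rrm3 clusters were close in outline to the Thp1/Sac3 intervals they covered. The longest measured 38099 bp at chrXII:451388-489486 and enclosed 6 intervals, of 18457, 2715, 1665, 6682, 2793 and 1980 bp, the largest number in the list. It began at the same base as the first of these and ended 19 bp after the last, and 34292 of its bases were in the intervals. The rDNA repeats, a known site of Rrm3 action, lie on chromosome XII of budding yeast, and whether this cluster covers them was not tested, as the lists name no genome build. The second, of 13860 bp at chrVII:811551-825410, enclosed intervals of 11611, 275 and 485 bp and ran 47 bp past them on the left and 62 bp on the right. Of the next, both ends of chromosome XII had a cluster around a single interval, one of 13836 bp around 13768 bp at chrXII:13-13848 and one of 13018 bp around 13014 bp at chrXII:1065149-1078166. The fifth, of 11274 bp at chrX:472794-484067, covered an interval of 11232 bp. In these 5 clusters Rrm3 exceeded the outer Thp1/Sac3 edges by 0 to 68 bp on either side. At both ends of chromosome XII there was little or no room for a longer run towards the end, so the runs of 0 bp there are set by the position.

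Other clusters enclosed 4 or 5 intervals. A cluster of 9084 bp at chrXIII:357048-366131 held 5 intervals that made up 6742 bp, from 207 to 4467 bp long. In a cluster of 5750 bp at chrXI:660784-666533, also with 5 intervals, 3185 bp were in intervals, and Rrm3 began 672 bp before the first. Clusters with 4 intervals inside lay at the right end of chromosome XV, 10545 bp with 9106 bp in intervals, and at the left end of chromosome XVI, 10384 bp with 9131 bp. In all, 48 clusters held 3 intervals, 9 held 4, 2 held 5 and 1 held 6.

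Rrm3 ran past the Thp1/Sac3 edges on both sides of most sites. Of the 2278 clusters that touched an interval, 2012 (88.3%, Wilson interval 86.9 to 89.6%) ran past the outer edges on both sides, 164 on the left only, 73 on the right only and 29 on neither. Left and right are those of the chromosome coordinates and say nothing of the direction of transcription. The median run was 164 bp on the left (156 to 176 bp) and 125 bp on the right (117 to 132 bp). Most runs were therefore shorter than the 300 bp given as the resolution of the array. The upper quartile of the runs was 420.75 bp on the left and 342.75 bp on the right, and 127 and 95 clusters, respectively, ran more than 1000 bp past the edge. Thp1/Sac3 fell short of Rrm3 far more often than the reverse, as Rrm3 ended inside the outermost interval in 75 clusters on the left and 157 on the right.

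The run was longer on the left by a small margin on most chromosomes, except at the longest intervals. Among the 1751 clusters with 1 interval inside, the medians were 174 bp (162 to 188 bp) on the left and 133 bp (124 to 140 bp) on the right. In 1015 of them (58.0%, Wilson interval 55.6 to 60.3%) the left run was longer, in 731 the right one, and in 5 both were equal. The share exceeded 50% on 16 of 16 chromosomes, from 53.2% on chromosome III to 65.5% on chromosome II. The median left run of all touching clusters was above the right one on 14 of 16, the exceptions being chromosome I, with 102 bp on the left and 134 bp on the right, and chromosome VI, with 148 and 149 bp. The margin varied with the length of the interval. For clusters that touched a single interval, wholly inside, the medians were 193 bp on the left and 134 bp on the right at intervals of 100 to 200 bp (579 clusters). They were 172 and 161 bp at 1000 to 2000 bp (78 clusters), and the order was reversed, with 61 and 99 bp, at 2000 bp or more (53 clusters). Over all lengths, the margin appeared against each protein taken alone. It was 188.5 against 147.5 bp at 1598 clusters with 1 Thp1 cluster inside, and 208 against 155 bp at 1513 with 1 Sac3 cluster inside. Between Thp1 and Sac3 themselves, in 1820 pairs of clusters that touched only each other, the median difference was 0 bp at the left and 0 bp at the right edge. The margin of Rrm3 is smaller than the resolution of the array, and what it comes from was not tested.

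**Figure D2:**
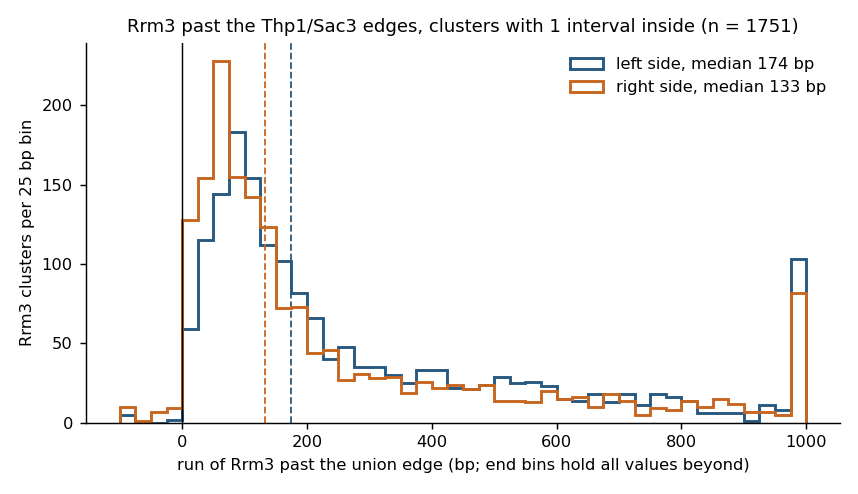
Distance by which Rrm3 runs past the left (blue) and right (orange) edge of the Thp1/Sac3 interval, in bp, for the 1751 Rrm3 clusters with 1 interval inside, counted in bins of 25 bp, with dashed lines at the medians. Both distributions lie almost wholly above 0, and the left median of 174 bp exceeds the right one of 133 bp.

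Long runs were a minority on each side, and were seen more often on a single side than on both. Of the clusters with 1 interval inside, 379 (21.6%) ran more than 500 bp past it on the left and 306 (17.5%) on the right. With such shares, long runs on both sides are rare even where the sides are unrelated, and a relation between the sides was not tested. Among clusters with 1 interval inside, 714 (40.8%) ran less than 250 bp past it on both sides, 553 (31.6%) ran more than 500 bp past it on 1 side only, and 66 (3.77%) on both sides. The longest left run, 4071 bp, was in a cluster of 4764 bp at chrX:282395-287158, whose interval of 681 bp lay 12 bp from the right end. Left runs of 3810 and 3407 bp followed, at chrII:736770-741068 and chrXIII:206263-210174, around intervals of 306 and 158 bp. The longest right runs were 3326 bp at chrVII:488428-492697, 2865 bp at chrXV:1075853-1080297 and 2817 bp at chrXVI:817904-821254, around intervals of 159, 512 and 120 bp. In these 6 clusters the Thp1/Sac3 interval was a small part at or towards one side of a long Rrm3 cluster. These clusters were picked by the length of the run on 1 side, so this placing follows largely from the choice.

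Coverage by Rrm3 fell steeply within about 350 bp of the Thp1/Sac3 edge and then slowly. Among bases 1 to 50 bp outside the nearest interval 90.3% were in Rrm3 clusters, and among those at 101 to 150 bp 62.6%. At 201 to 250 bp the share was 44.1%, and at 351 to 400 bp 35.0%, close to the 35.2% of all bases outside. From there it declined to 32.3% at 951 to 1000 bp, 27.8% at 3001 to 5000 bp and 27.2% at 5001 to 10000 bp. The steep part was present on every chromosome, as the lowest share at 1 to 50 bp, 82.9%, was above the highest at 201 to 250 bp, 52.1%. The slow decline was smaller than the range between chromosomes, which at 951 to 1000 bp went from 28.6 to 38.0%. On the inner side of the edge, 95.9% of the first 50 bp were in Rrm3, and 98.1% at 151 to 200 bp. Counted over edges, Rrm3 was present at 40.0% of 4891 positions 500 bp outside an edge (Wilson interval 38.6 to 41.4%), leaving out those that fell in another interval. Positions close to another interval were kept in this count. By distance to the nearest interval, 34.4% of the bases at 451 to 500 bp were in Rrm3.

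**Figure D3:**
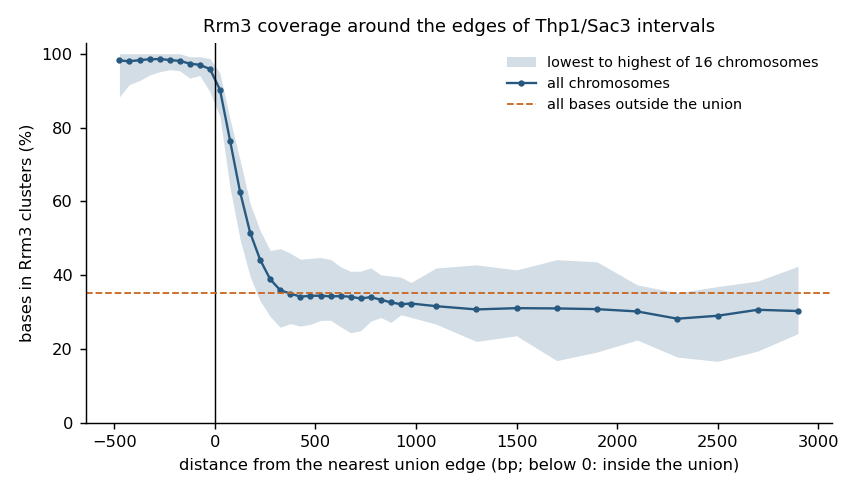
Percentage of bases in Rrm3 clusters against the distance from the nearest Thp1/Sac3 edge (bp, below 0 inside the interval). The line is the whole genome, the band the lowest to highest of 16 chromosomes and the dashed line all bases outside the intervals (35.2%). Coverage drops from 90.3% in the first 50 bp outside to 35.0% at 351 to 400 bp.

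Rrm3 joined neighboring Thp1/Sac3 intervals only where these were close to each other. Of 2769 gaps between neighboring intervals, 483 (17.4%, Wilson interval 16.1 to 18.9%) were wholly inside 1 Rrm3 cluster. Below 250 bp there were few gaps, and 6 of 9 were bridged (66.7%, 35.4 to 87.9%). Gaps of 250 to 500 bp were bridged in 277 of 361 cases (76.7%, 72.1 to 80.8%), those of 500 to 1000 bp in 169 of 422 (40.0%, 35.5 to 44.8%) and those of 1000 to 2000 bp in 29 of 545 (5.32%, 3.73 to 7.54%). The longest bridged gap measured 3052 bp. Of the gaps of 4000 bp or more none was bridged, with 0 of 533 from 4000 to 8000 bp (upper Wilson limit 0.716%) and 0 of 365 above (upper limit 1.04%). Rrm3 was nevertheless present in long gaps as separate clusters, and covered 34.1% of the bases in gaps of 4000 to 8000 bp and 30.3% in longer ones. Clusters were called with a maximum gap of 250 bp, which joins Rrm3 over short distances in any place.

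The 4824 Rrm3 clusters that touched no interval were spread over the space between them. Their median distance to the nearest interval, from edge to edge, was 1842 bp (1772 to 1907 bp), with quartiles of 926 and 3548.5 bp. With clusters of at least 300 bp in each list the distance was 3882 bp, a choice that leaves out both Rrm3 clusters and intervals. The nearest interval was on the right of the cluster in 2394 cases and on the left in 2430. Within 250 bp of an interval lay only 11 clusters (0.228%), since Rrm3 that close to the Rrm3 on the interval is joined with it. Within 500 bp lay 429 (8.89%), within 1000 bp 1328 (27.5%), and 122 (2.53%) lay more than 10 kb away. On single chromosomes the median distance went from 1320 bp on chromosome IV, which has the most intervals, to 2451.5 bp on chromosome X.

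Beyond 1 kb the density and the length of these clusters varied little with distance. Relative to the bases available at each distance, there were 60.6 cluster midpoints per 100 kb at 1001 to 2000 bp from an interval, 60.9 at 2001 to 4000 bp, 59.8 at 4001 to 8000 bp and 60.5 beyond. Nearer by, there were 49.5 at 501 to 1000 bp and 10.3 at 251 to 500 bp, where joining with the Rrm3 on the interval leaves less room. The median length was 367 bp (349 to 391 bp) for the 899 clusters at 501 to 1000 bp, 342.5 bp (321 to 359 bp) for 1240 at 2001 to 4000 bp, and 334.5 bp (294 to 372 bp) for 222 at more than 8000 bp. Rrm3 clusters that touched no interval thus occurred at a similar density in each of these ranges beyond 1 kb. The last range takes all distances above 8000 bp together. The share of bases in any Rrm3 cluster, touching ones included, was 31.1% at 1001 to 2000 bp and 27.5% above 8000 bp.

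**Figure D4:**
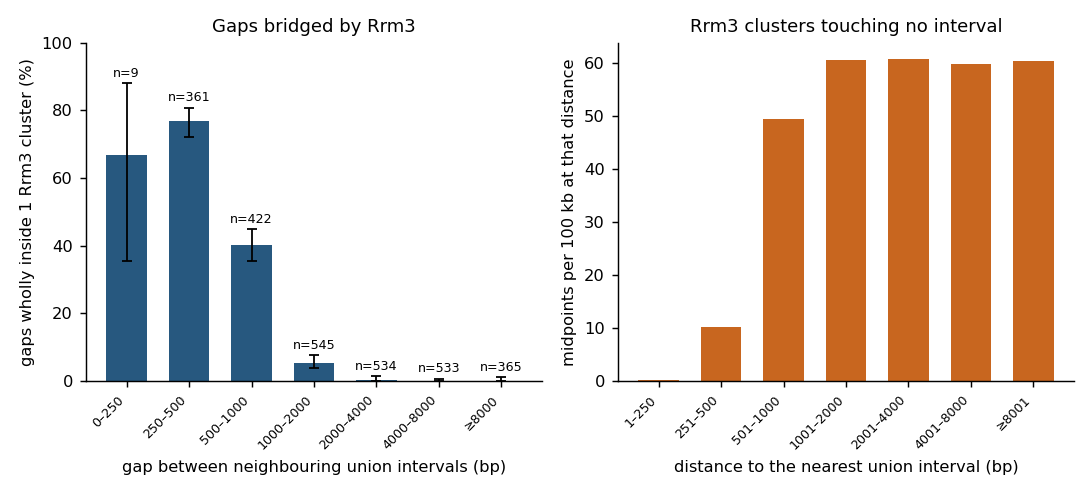
Left, percentage of gaps between neighboring Thp1/Sac3 intervals that lie wholly inside 1 Rrm3 cluster, by gap length in bp, with 95% Wilson intervals as error bars and the number of gaps above. Right, midpoints of the 4824 Rrm3 clusters that touch no interval per 100 kb of bases at each distance from an interval. Bridging falls from 76.7% at 250 to 500 bp to 0% from 4000 bp, while the density stays between 59.8 and 60.9 beyond 1 kb. Below 250 bp, 6 of 9 gaps were bridged.

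The farthest clusters lay in stretches free of both proteins on chromosomes XIV and XIII. A cluster of 255 bp at chrXIV:747905-748159 was 20529 bp from the nearest interval, and one of 114 bp at chrXIV:749048-749161 was 19527 bp away. On chromosome XIII, clusters of 132, 703 and 157 bp at chrXIII:327803-327934, chrXIII:326769-327471 and chrXIII:328325-328481 were 19635, 19344 and 19088 bp away. All but that of 703 bp were below the median of clusters touching no interval. The longest clusters of this kind were nearer. They measured 3300 bp at chrXII:63788-67087, at 5081 bp from an interval, and 3270 bp at chrXVI:622308-625577, at 706 bp. Those of 2950 bp at chrXVI:752604-755553, 2875 bp at chrXI:511170-514044 and 2834 bp at chrXIII:917289-920122 were at 991, 1723 and 1495 bp.

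Across the genome, the number of Rrm3 clusters varied less between windows, relative to its mean, than that of Thp1/Sac3 intervals. In 112 windows of 100 kb there were 39 to 74 Rrm3 clusters with a median of 59 (57 to 60), and 11 to 41 Thp1/Sac3 intervals with a median of 22.5 (22 to 24). The SD between windows was 10.1% of the mean for Rrm3 and 26.0% for the intervals. A lower mean count gives a larger relative SD by counting error alone. The variance divided by the mean was 0.607 for Rrm3 and 1.56 for the intervals. Chromosome IV had 31.3 intervals per 100 kb, against a median of 21.7 over the chromosomes, and the spread without it was not computed. By bases, Rrm3 took 32550 to 65457 bp of a window and the intervals 3789 to 42003 bp. Most Rrm3 clusters were found at chrV:100001-200000, with 74, chrVII:100001-200000, with 72, and chrVIII:200001-300000, with 70, among 22 intervals each. The windows chrIX:100001-200000 and chrX:300001-400000 also had 70 Rrm3 clusters, among 17 and 11 intervals. Fewest were found at chrXII:400001-500000, with 39, and at chrIV:600001-700000 and chrIV:1100001-1200000, with 49 each, among 26, 30 and 23 intervals. The window on chromosome XII, which holds the longest cluster, had the fewest Rrm3 clusters and the most Rrm3 bases, 65457 bp.

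Windows rich in Thp1/Sac3 bases had fewer Rrm3 clusters, which were longer. Over the 112 windows the number of Rrm3 clusters had a Pearson correlation of −0.57 with the bases in intervals (Spearman −0.53) and of −0.04 with the number of intervals (Spearman −0.03). The bases in Rrm3 clusters had a correlation of 0.78 with those in intervals (Spearman 0.72), a relation that is partly built in because Rrm3 covers nearly all interval bases. The lower number and greater length of Rrm3 clusters are partly built in as well. Most intervals lie inside 1 Rrm3 cluster, so long intervals come with long clusters and leave less room for others. When only bases outside the intervals were counted, the share of them in Rrm3 had a correlation of 0.21 with the interval bases (Spearman 0.20), while the number of Rrm3 bases outside had one of −0.37 (Spearman −0.31), as windows with more interval bases have fewer bases outside. These values describe windows of the same 3 lists, which are neighbors on the same arrays and not replicates. Without the window of the longest cluster they were −0.51, −0.03, 0.75, 0.18 and −0.33. Without chromosome IV the same Pearson values were −0.64, −0.14, 0.84, 0.37 and −0.30, so that they rest in part on the choice of chromosomes. In the 28 windows with the most interval bases the median was 55 Rrm3 clusters and 50373.5 bp, of which 29950.5 bp lay outside the intervals. In the 28 with the fewest it was 62 clusters and 39077.5 bp, with 32302.5 bp outside.

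**Figure D5:**
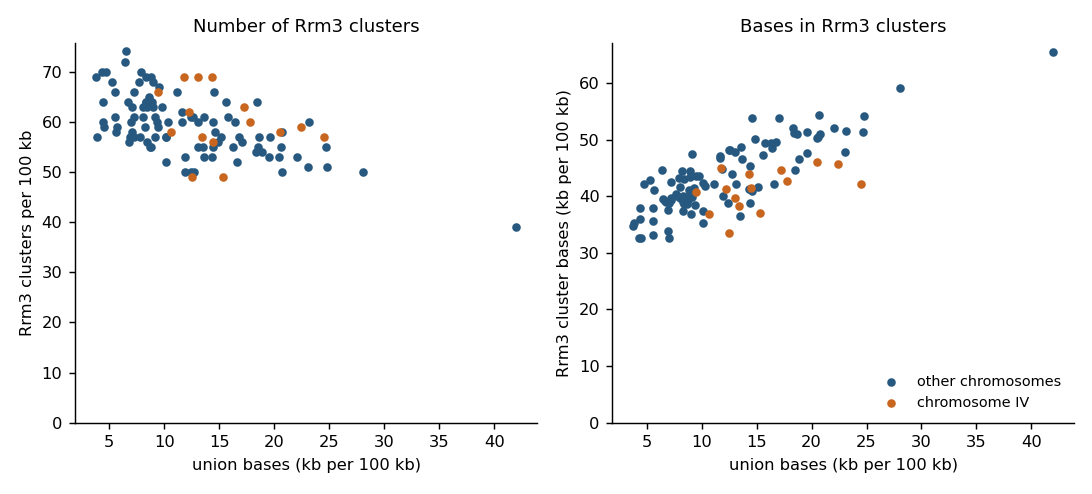
Number of Rrm3 clusters (left) and bases in Rrm3 clusters (right, kb) against the bases in Thp1/Sac3 intervals (kb), each point a window of 100 kb, 112 in all, with chromosome IV in orange. The number falls with the interval bases (Pearson −0.57) and the Rrm3 bases rise (0.78), and the point at the far right is the window of chromosome XII with 39 clusters.

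Between chromosomes, density differed less for Rrm3 than for Thp1 and Sac3 together. There were 54.4 Rrm3 clusters per 100 kb on chromosome XII and 62.9 on chromosome V, the extremes of the 16. For the intervals the extremes were 19.5 per 100 kb on chromosome XI and 31.3 on chromosome IV. On chromosome IV, where the Thp1 list has many more clusters than the Sac3 list, 43.1% of the 915 Rrm3 clusters touched an interval, the highest share of all chromosomes, and the lowest was 25.8% on chromosome VI. Without chromosome IV the share over the genome was 30.5%.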

How the data were processed

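Per the labels and the methods, ChIP and input DNA of asynchronous cultures were hybridized to Affymetrix tiling arrays with a resolution of 300 bp. The authors obtained IP/SUP ratios and P-values per probe from the Tiling Array Suite. Clusters are runs of at least 100 bp with a positive signal and P-values under 0.01, joined over gaps of up to 250 bp. Rrm3 arrays were quantile normalized. The deposited values are cluster starts and ends in bp. The version and the genome build are not given in the sources used here, so no genes were assigned and no sequence is shown. The shortest cluster measured 100 bp in each list, the smallest gap 251 bp, and 0 clusters overlapped.

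Thp1 and Sac3 clusters were merged where they overlapped or met. Inside means wholly within an Rrm3 cluster, and touching means at least 1 bp in common. Runs were measured from the outermost touched edges. Each chromosome was taken to end with the last cluster of the 3 lists together. Windows of 100 kb began at the chromosome start, incomplete ones were left out, and clusters were counted by midpoint. Medians have exact binomial and shares Wilson 95% intervals. No test was run, as there is 1 list per protein. Regions were named by rank in length, number inside, distance and run. The comparison and these choices were made with earlier results of these data known. The interval code was tested on simulated lists. Python 3.11.15, numpy 2.4.6, scipy 1.17.1, pandas 2.3.3 and matplotlib 3.10.9 were used. Of the 6 samples, the 2 of Rrm3 in thp1Δ cells were not used here.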

Additional observations from a re-analysis of the deposited data

How the results depend on the processing

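Of 84 recomputed values, 43 stayed within the 95% interval of the reported value and 41 left it. Only 5 moved by more than 1.5-fold, all with clusters of at least 300 bp. That choice gave 21.9% of Rrm3 clusters touching an interval, median lengths of 562, 1319, 3001 and 7634 bp with 0, 1, 2 and 3 or more intervals, a right run of 144 bp, Rrm3 at 41.7% of positions 500 bp outside, a distance of 3882 bp and 42 clusters per window. It leaves out Rrm3 clusters and intervals alike. Without chromosome IV, 30.5% touched, the length with 1 inside was 868.5 bp, the runs were 182 and 134 bp and the distance 1921 bp. With Thp1 alone, 28.7% touched, the lengths with 0 and 1 inside were 349 and 868 bp, the runs 180 and 136 bp and the distance 2128 bp. With Sac3 alone, they were 26.7%, 351 and 913 bp, 2071.5 bp with 2 inside, runs of 204 and 151 bp, 43.0% at 500 bp outside and 2226 bp. With bases in both proteins, they were 23.1%, 362, 953, 2100 and 3924 bp, runs of 233 and 175 bp, 44.6% and 2617 bp. With any overlap counted as inside, the length with 1 inside was 803 bp. Counted over edges, with positions close to another interval kept, Rrm3 was at 46.0% of positions 250 bp outside and 38.0% at 1000 bp. Windows shifted by 50 kb held 60.5 clusters. The median left run over all touching clusters exceeded the right one under each of these choices that gave both. Leaving out the longest cluster or its window, and the left and right runs by protein, were chosen after seeing the data. No paired analysis was possible because there is 1 list per protein, and a repetition could not be left out for the same reason. The lists hold no signal, so the strength of binding cannot be compared, and edges are limited by the array's 300 bp.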

Other observations

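Near chromosome ends a larger share of Rrm3 clusters touched a Thp1/Sac3 interval than elsewhere. Within 20 kb of an end, 125 of 290 Rrm3 clusters touched an interval (43.1%, Wilson interval 37.5 to 48.9%), against 31.6% of the 6812 others (30.5 to 32.7%). Their median length was 550.5 bp, against 452.5 bp. Of the 70 Rrm3 clusters of 5000 bp or more, 22 lay there. Among touching clusters, the median share of an Rrm3 cluster taken up by intervals was 54.6% near the ends and 40.8% elsewhere, and the left and right runs were 142 and 131 bp near the ends. Neither the density of intervals near the ends nor the share of them touched by Rrm3 was counted. On chromosome IV, which has the most intervals, 43.1% of Rrm3 clusters touched one as well. Intervals without Rrm3 also lay near ends, such as those at chrVII:3220-3846 and chrVII:4904-5424.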
